A study of Mus with 2 samples.

Results

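The genes described here are 10 inflammatory chemokine genes of the mouse, Cxcl1, Cxcl2, Cxcl10, Cxcl13, Ccl2, Ccl3, Ccl4, Ccl5, Ccl7 and Ccl8. The group was chosen by gene name with the senescent and young means of these same entries already known, and every entry of the authors' deposited table that carries one of these names was taken. Of the 10 genes, 9 were found, in 11 entries, among 8191 genes and 20111 entries in all. Cxcl10, an interferon-induced ligand of the receptor CXCR3, was not listed in any cluster.

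Single-cell RNA sequencing in droplets was applied to whole-kidney cell suspensions of C57BL/6 mice, with 1 library from young and 1 library from senescent mice. The series states 10895 cells for the young and 4408 cells for the senescent mice. Ages, sex, the number of mice behind each library and the number of cells in each cluster are not stated in the sources used here. Each value is the authors' average of scaled expression over the cells of 1 library in 1 of 7 clusters, so it has no spread between mice. The clusters carry the authors' labels Neutro, B, T, Marco, endo, LOH and PT.

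Chemokines are small secreted proteins that guide the movement of leukocytes through G protein-coupled receptors on those cells. CXCL1 and CXCL2 attract neutrophils through CXCR2, CCL2 and CCL7 attract monocytes through CCR2, CCL3, CCL4 and CCL5 attract monocytes and T cells, and CXCL13 attracts B cells through CXCR5. In the kidney, stressed tubule cells and resident macrophages are well-known sources, and many of the genes are targets of the transcription factor NF-kB.

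All 11 entries had the higher mean in the senescent library, and 0 had the higher mean in the young library. A cluster's entries in the authors' deposited table are restricted to genes with a p-value over cells under 0.05 and a log2 fold change of 0.36 or more in either direction, so a gene that is not listed cannot be called unchanged. At the authors' adjusted p of 0.05 and an absolute log2 fold change of 1, the authors' deposited table called 9 of the 11 entries higher and 0 lower. Of the 9 called entries, 7 were in Marco, 1 was in T and 1 was in PT. The same call held for 22.9% of all genes listed in Marco, 3.85% in T, 57.2% in PT and 0.389% in endo. The genes were chosen with these contrasts known, so the counts are a description, and the adjusted p-values measure spread between cells of 1 library per group. In the authors' deposited table the adjusted p of the called entries ran from 1.2e-188 (Cxcl1 in PT) to 0.00207 (Ccl8 in Marco). LOH, B and Neutro listed none of the 10 genes.

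**Figure D1:**
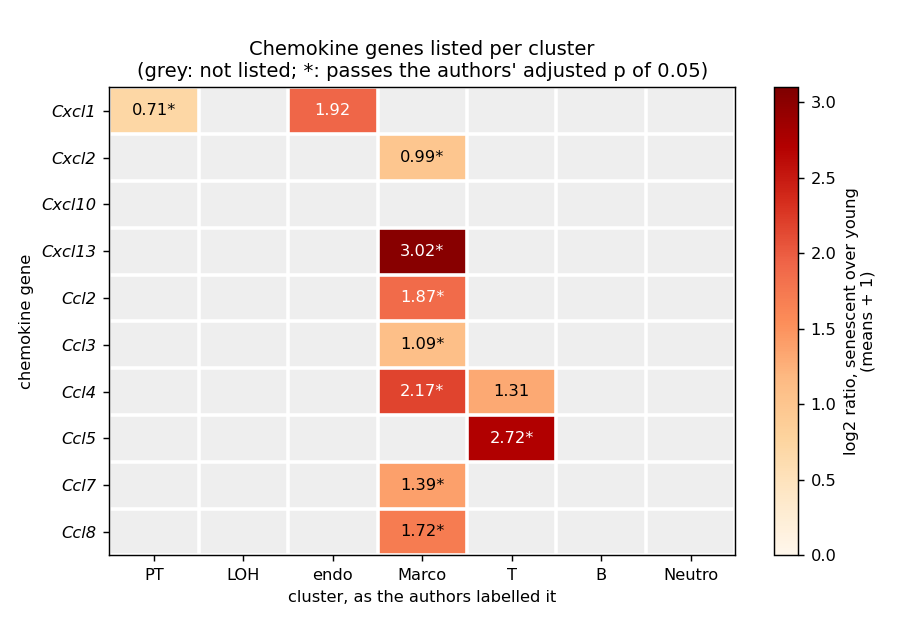
Log2 ratio, senescent over young, with 1 added to every mean, for the 10 chemokine genes (rows) in the 7 clusters (columns); grey cells were not listed, and an asterisk marks an adjusted p of at most 0.05 in the authors' deposited table. Marco holds 7 of the 11 coloured cells, from 0.99 for Cxcl2 to 3.02 for Cxcl13.

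The cluster labelled Marco held most of the chemokine entries. All 13 markers of macrophages or monocytes were listed there, among them Apoe, Lyz2 and the complement genes C1qa and C1qb. All 10 proximal tubule markers were listed there too. Listing requires a difference between the libraries, so it does not check the label. Ccl2 and Ccl7, which encode ligands of the monocyte receptor CCR2, come first. Ccl2 averaged 0.108 per cell in young and 3.04 in senescent kidney, which is 28.1-fold higher. Ccl7 was listed at 0 in young kidney and averaged 1.61 in senescent kidney. Ccl8, a further member of the same monocyte chemoattractant family, was listed at 0 and had a senescent mean of 2.29. For Ccl2 the young library thus had some transcript, whereas for Ccl7 and Ccl8 the table gives none. No fold is given for a gene listed at 0, and the smallest young mean above 0 among all genes of this cluster was 0.00532.

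Ccl3 and Ccl4, whose proteins are made by activated macrophages and lymphocytes, had young means above 0 in Marco, as Ccl2 did, and both were several times higher in the senescent library. Ccl3 averaged 0.414 in young and 2.02 in senescent kidney, a 4.87-fold difference. Ccl4 had means of 1.43 and 9.94, a 6.95-fold difference. Ccl5, a further attractant of T cells, was not listed in Marco.

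Cxcl2, a neutrophil attractant, was listed at 0 in Marco in the young library and averaged 0.985 in the senescent library. Cxcl13, which guides B cells into follicles, was listed at 0 in Marco in the young library and averaged 7.14 in the senescent library. By log2 ratio after adding 1, Cxcl13 ranked 8 of the 4462 genes listed in Marco. Counted together, 4 of the 7 chemokine genes of Marco (Cxcl2, Cxcl13, Ccl7 and Ccl8) were listed at 0 in the young library, against 30 of all 4462 listed genes (0.672%).

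The median log2 ratio of the 7 chemokine genes in Marco, after adding 1 to each mean, was 1.72. The median over all 4462 genes listed in that cluster was 0.23, and 58.3% of them had the higher mean in the senescent library. Macrophage or monocyte markers differed in the same direction, with higher senescent means in all 13 of 13, summed means of 46.5 (young) and 368 (senescent), and a median log2 ratio of 1.90. Their folds ran from 2.92-fold for Cd14 to 15.9-fold for Apoe, with a median of 6.70-fold. The folds of Ccl3 and Ccl4 lay within that range, and that of Ccl2 lay above it. Taken relative to the marker median, the median of the chemokine genes was -0.18. With a pseudocount of 0.1 in place of 1, a setting chosen after seeing the data, it was 1.20 above the marker median. With a pseudocount of 10 the medians were 0.30 (chemokine genes) and 0.57 (markers).

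Transcripts of other cell types moved in Marco as well. All 10 of 10 proximal tubule markers were lower there, with summed means of 779 (young) and 24.1 (senescent). Neutrophil markers were higher in 4 of 4 listed of 7, with summed means of 0.0589 (young) and 7.15 (senescent), and S100a8 and Lcn2 among them were listed at 0 in the young library. B cell markers were higher in 2 of 2 listed of 6, with summed means of 0.638 and 2.91. Loop of Henle markers were lower in 4 of 4 listed of 5, with summed means of 3.48 and 1.22. The part of the macrophage, tubule, B cell and neutrophil transcripts in the chemokine values was not tested.

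**Figure D2:**
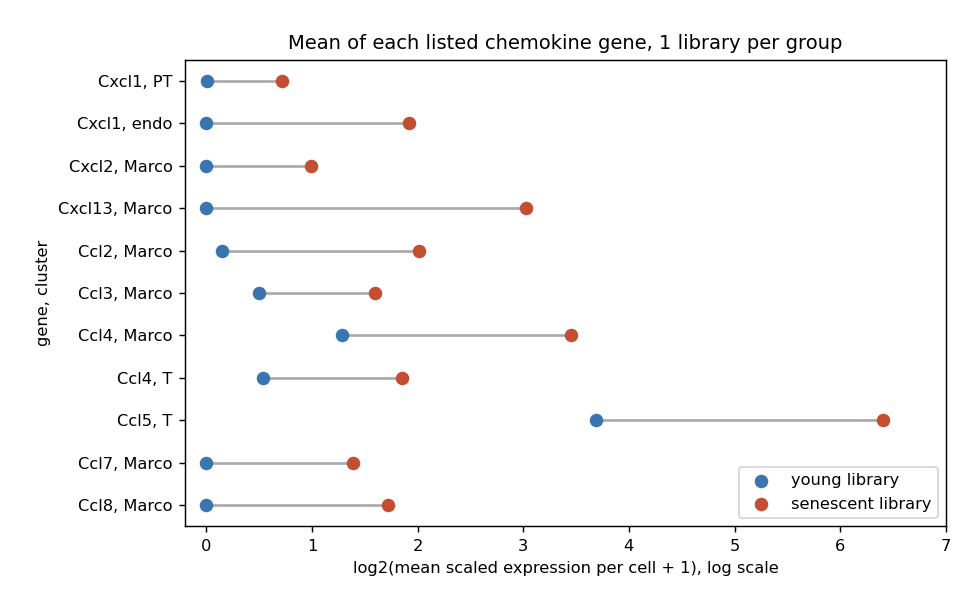
Each row is 1 listed gene in 1 cluster, and the x axis is log2 of the mean scaled expression per cell plus 1, with the young library in blue and the senescent library in orange. In all 11 rows the senescent point lies to the right, and 5 young points are at 0.

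In the T cluster, the chemokine genes listed were Ccl5 and Ccl4, both products of activated T and natural killer cells. Of the 11 T or natural killer cell markers, 10 were listed in this cluster. Ccl5 averaged 11.9 per cell in young and 83.8 in senescent kidney, which is 7.06-fold higher. By difference of the means it ranked 2 of the 4368 genes listed in T, and by log2 ratio it ranked 4. Ccl4 had means of 0.452 and 2.60 in T, a 5.75-fold difference, but its adjusted p in the authors' deposited table was 1 and did not pass. Of the genes listed in T, 44.8% had the higher mean in the senescent library.

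Ccl4 was the member listed in both Marco and T, so its level can be set side by side. Its mean was 3.16 times as high in Marco as in T in the young library and 3.82 times as high in the senescent library. The markers of T or natural killer cells were higher in all 10 of the 10 listed in T, from 1.70-fold for Cd8a to 8.87-fold for Cd4, with a median of 3.75-fold. Summed, they reached 20.6 in young and 75.6 in senescent kidney. The fold of Ccl5 was above that of every listed T or natural killer cell marker except Cd4, whose entry did not pass. Relative to the marker median, the log2 ratio after adding 1 was 1.34 for Ccl5 and -0.074 for Ccl4. With a pseudocount of 0.1, a setting chosen after seeing the data, the values were 0.93 and 0.41. Proximal tubule markers were lower in 10 of 10, with summed means of 623 and 22.8, and 2 of 13 macrophage or monocyte markers were listed, with summed means of 0.521 and 3.73. Of 6 B cell markers, Igkc was listed in T, with means of 0.610 and 7.77, and of 7 neutrophil markers, S100a9 was listed, with means of 0.0172 and 0.528. What these transcripts contribute to the values of Ccl4 and Ccl5 was not tested.

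Cxcl1, a neutrophil attractant that injured epithelium also makes, was the member listed outside the leukocyte clusters. In PT it averaged 0.00565 in young and 0.644 in senescent kidney, which is 114-fold higher. Its log2 ratio after adding 1 was 0.71, since both means are small against the 1 added, and it ranked 409 of the 5037 genes listed in PT, of which 78.4% had the higher mean in the senescent library. In endo, Cxcl1 was listed at 0 in young kidney, as were 16.4% of the genes of that cluster, and averaged 2.78 in senescent kidney. That senescent mean was 4.31 times the one in PT. It did not pass in the authors' deposited table, where the adjusted p was 1, and 48.2% of the genes listed in endo had the higher senescent mean.

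The label endo could not be checked against endothelial markers, since none of the 7 was listed there. Proximal tubule markers were listed in endo for 6 of 10, with summed means of 392 (young) and 139 (senescent). Neutrophil markers were listed for 2 of 7 in endo, S100a8 and S100a9, both at 0 in the young library and with a summed senescent mean of 3.21. Neither passed in the authors' deposited table, whereas the macrophage marker Apoe (3.95 and 11.8) and the B cell marker Igkc (listed at 0, and 1.51) did. Of 13 macrophage or monocyte markers, 2 were listed in endo, and of 6 B cell markers 1 was. In PT the same 2 neutrophil markers had summed means of 0.629 and 2.05, and 8 of 10 proximal tubule markers were listed, of which 3 were higher and 5 lower. Macrophage or monocyte markers were listed in PT for 3 of 13, with summed means of 1.64 and 13.0, of which Apoe was higher (0.776 and 12.4) and Lyz2 and Tyrobp were lower, and Igkc was the 1 B cell marker of 6 (0.501 and 1.59). The part of these transcripts in the Cxcl1 values was not tested.

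The other chemokine genes were taken from a list of 25, of which 8 were listed in some cluster. In Marco 6 were listed, of which 5 were higher and passed the adjusted p of the authors' deposited table and 1 was lower and did not pass. Across the genes of Marco, 24.6% were higher and passed. Ccl12, a mouse monocyte chemoattractant close to CCL2, had means of 0.0806 and 5.25, a 65.1-fold difference. Ccl6 had means of 0.740 and 5.89, Ccl9 had means of 0.180 and 2.08, and Cxcl16, the ligand of CXCR6, had means of 0.514 and 3.85. For these 6 genes of Marco the log2 ratio had a median of 1.53. In PT, Cxcl12, the ligand of CXCR4, had means of 0.134 and 0.300, and Cxcl16 had means of 0.268 and 0.583. In T and in B, 3 of the 25 genes were listed in each, all had the lower mean in the senescent library, and 0 of these passed. Of all genes, 55.2% in T and 71.8% in B had the lower senescent mean.

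Receptor genes for some of the chemokine members were listed in Marco and in T. In Marco, 7 of 23 chemokine receptor genes were listed, of which 6 were higher and 1 was lower, and all 7 passed in the authors' deposited table. Of all genes of Marco, 24.6% were higher and passed and 24.8% were lower and passed. All 13 macrophage or monocyte markers were also higher and passed there. Ccr2, the receptor for CCL2 and CCL7, had means of 0.761 and 5.94, a 7.81-fold difference. Ccr1, which binds CCL3 and CCL5, had means of 0.0647 and 0.879, and the fractalkine receptor gene Cx3cr1 had means of 0.994 and 6.28. Monocytes and macrophages are known to carry these receptors.

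In T, 5 of the 23 receptor genes were listed, of which 4 were higher and 1 was lower. Of all genes listed in T, 44.8% had the higher senescent mean. Of the 5 receptor genes, 0 passed in the authors' deposited table, against 6.62% of the genes of T that were higher and passed. Ccr2 was listed at 0 in T in the young library and averaged 1.74 in the senescent library. Cxcr3, the receptor for CXCL10, had means of 0.340 and 1.72 in T. The entries for Ccr2 and Cxcr3 in T thus had higher senescent means that did not pass. The receptors of the CXCL1, CXCL2 and CXCL13 proteins, encoded by Cxcr2 and Cxcr5, were not listed in any cluster.

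**Figure D3:**
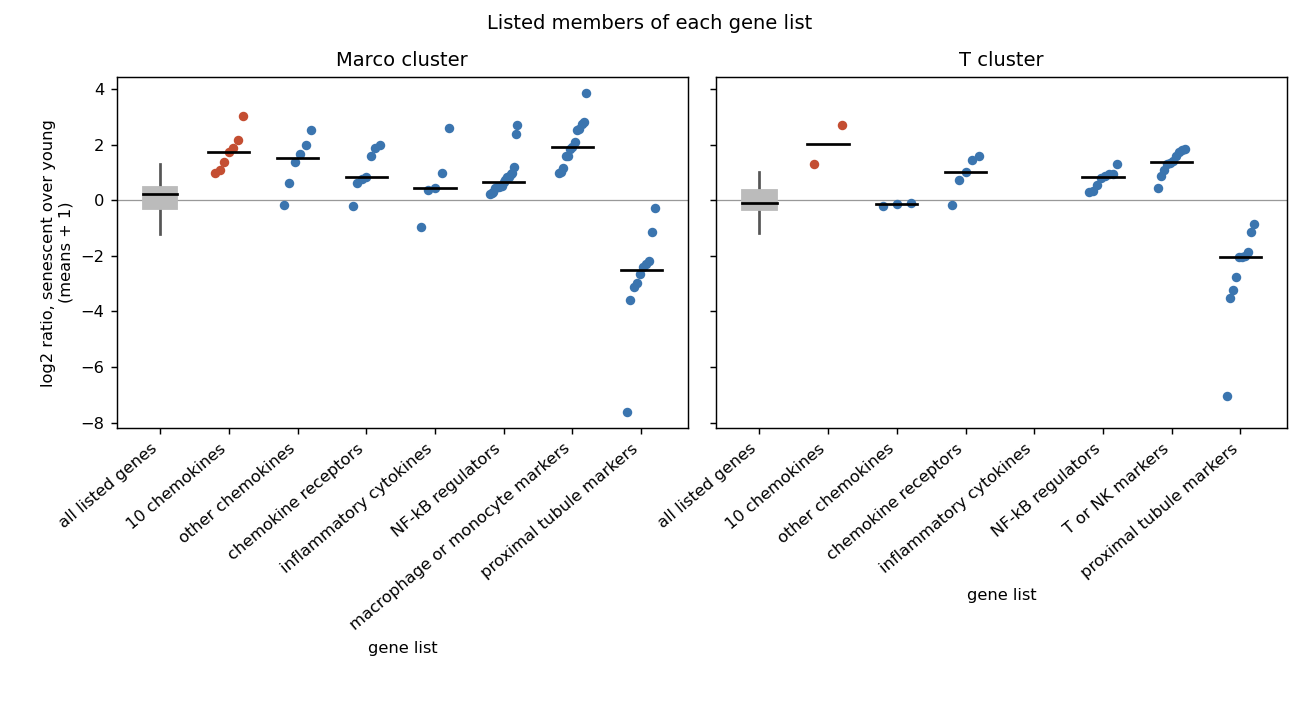
Log2 ratio, senescent over young, with 1 added to every mean, for the listed genes of each list in Marco (left) and T (right); points are genes, black lines are medians, and the grey box with its line spans percentiles 25 to 75 and 5 to 95 of all listed genes. In Marco the 7 chemokine genes have a median of 1.72, beside 1.90 for macrophage or monocyte markers and 0.23 for all listed genes.

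Inflammatory cytokines and NF-kB regulators were described from lists of 16 and 22 genes. In Marco, 5 cytokine genes were listed, of which 4 were higher and 1 lower. Il1b, which encodes the inflammasome product interleukin-1 beta, had means of 1.34 and 13.0, a 9.71-fold difference, and Tgfb1 had means of 0.311 and 1.57. Osm, which encodes oncostatin M, was listed at 0 in Marco in the young library and averaged 0.341 in the senescent library. Mif went the other way, with means of 4.49 and 1.78. By the authors' deposited table these 4 genes passed, 3 as higher and 1 as lower, beside 24.6% and 24.8% of all genes of Marco. Outside Marco, the cytokine list had 1 entry, for Tgfb1 in B, which did not pass.

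Of the NF-kB regulators, 17 of 22 were listed in Marco, all 17 had the higher mean in the senescent library, and 13 passed in the authors' deposited table, against 58.3% and 24.6% of all genes of Marco. The list also holds regulators outside NF-kB itself, such as Stat3 and Socs3 of JAK-STAT signalling. Zfp36, which encodes an mRNA-destabilising protein that limits cytokine output, had means of 0.873 and 11.4. Socs3, a feedback inhibitor of cytokine signalling, had means of 0.0860 and 4.72. Nfkbiz and Nfkbia, which encode inhibitor-of-kappa-B family proteins induced by NF-kB, had means of 0.134 and 1.59 and of 0.453 and 1.90. The median log2 ratio of the list was 0.66 in Marco, above the 0.23 of all listed genes. It was below the 1.72 of the chemokine genes and the 1.90 of the macrophage or monocyte markers. All 13 of those markers were higher and passed as well.

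In PT, where Cxcl1 was listed, 5 of the 22 regulators were listed, all were higher, and all 5 passed in the authors' deposited table, against 78.3% of all genes listed in PT. Nfkbiz had means of 0.0148 and 0.932 there, a 62.9-fold difference. Zfp36 had means of 0.243 and 2.09 in PT, and Stat3 had means of 0.0454 and 0.564. In endo, where Cxcl1 was also listed, 4 regulators were listed, all 4 were higher and 0 passed. Of all genes listed in endo, 48.2% had the higher senescent mean. In T, 8 regulators were listed and all 8 had higher senescent means, against 44.8% of the genes of T. Of the 8, 0 passed, against 6.62% of the genes of T that were higher and passed. In LOH, which listed none of the 10 chemokine genes, 5 regulators were listed, all as higher. Of these, 3 passed (Socs3, Stat3 and Zfp36), against 4.71% of the genes of LOH. The median log2 ratio over all genes listed in LOH was -0.11. The NF-kB subunit gene Rela and Nfkbiz, also listed there, did not pass.

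The chemokine genes lie in gene clusters on chromosomes 5 and 11, with positions from RefSeq on GRCm38.p6, the assembly behind mm10. Ccl2 (chr11:82035577-82037452), Ccl7 (chr11:82045712-82047525) and Ccl8 (chr11:82115185-82116799) span 81.2 kb, in which 5 protein-coding genes are annotated. Of these 5 genes, 4 were listed in Marco and had higher senescent means, beside 58.3% of all genes listed there. They are the chosen members Ccl2, Ccl7 and Ccl8, which set the stretch, and Ccl12. Ccl11 was not listed. Ccl5 (chr11:83525778-83530518), Ccl3 (chr11:83647843-83649378) and Ccl4 (chr11:83648624-83664683) span 139 kb with 5 protein-coding genes, and all 5 were listed in some cluster. Of the genes in that stretch, Ccl9, Ccl6, Ccl3 and Ccl4 were listed as higher in Marco, whereas Ccl5 was listed in T. Ccl3, Ccl4 and Ccl5 are again chosen members that set the stretch. The annotated extents of Ccl3 and Ccl4 overlap by 755 bp. How reads in the overlap were counted is not stated in the sources used here, so the division of reads between Ccl3 and Ccl4 is uncertain.

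On chromosome 5, Cxcl1 (chr5:90891245-90893121) and Cxcl2 (chr5:90903899-90905938) are neighbours within 14.7 kb. They were listed in different clusters, Cxcl1 in PT and endo and Cxcl2 in Marco. Cxcl10 (chr5:92346638-92348889) and Cxcl13 (chr5:95956939-95961068) lie farther along the same chromosome. All 10 genes are protein coding in the annotation, and their values refer to whole genes.

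**Figure D4:**
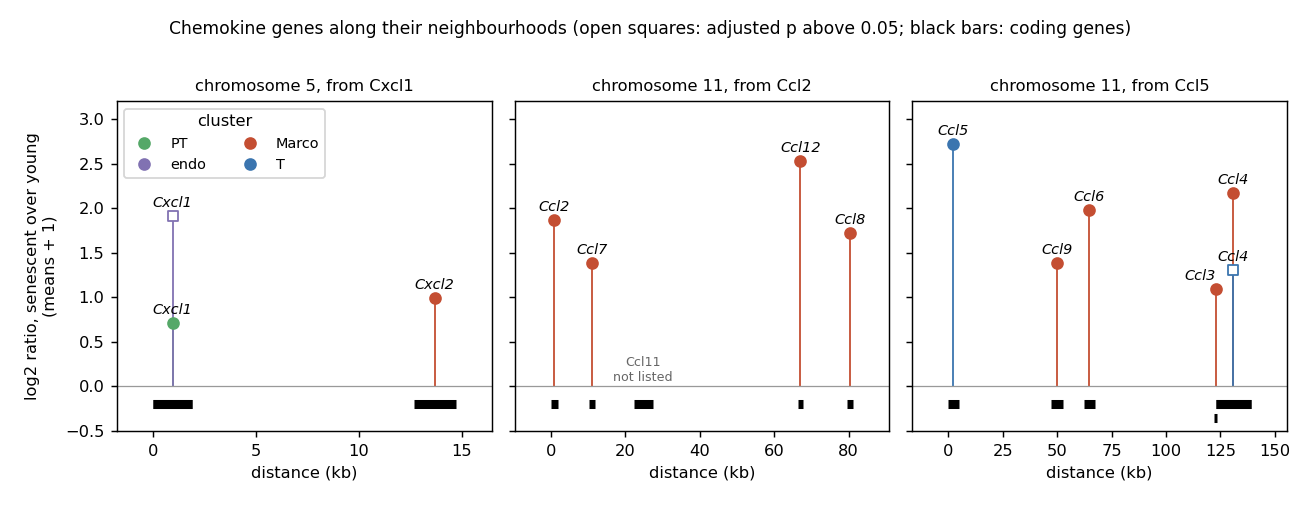
Log2 ratio, senescent over young, with 1 added to every mean (y axis) against distance in kb from the start of the first gene (x axis) for the protein-coding genes of 3 chromosomal stretches, coloured by cluster; open squares did not pass the adjusted p, and black bars below show the annotated genes. On chromosome 11 all points except those of Ccl5 and the lower Ccl4 point come from Marco, and Ccl11 was not listed.

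Genes with the most similar values were found by distance over the clusters in which a member was listed. For Cxcl1, 85 other genes were higher in PT and endo and listed in no other cluster, and the closest by log2 ratio were Cp, which encodes ceruloplasmin, Serpina10 and Myc. Cp had means of 0.00849 and 0.606 in PT and of 0.172 and 2.68 in endo. For Ccl4, 200 other genes were higher in Marco and T and listed nowhere else, and the closest were Ccr2, Fyb, which encodes a T cell adaptor protein, and Bcl2a1b. For members listed in 1 cluster, the distance was taken over the levels in both libraries. Closest to Cxcl13 in Marco were Saa3, Rgs1 and Chil3, closest to Ccl2 were Ms4a6d, Ier3 and Gda, and closest to Ccl8 were C4b, Lrg1 and S100a9. Saa3, like Cxcl13, was listed at 0 in the young library and had a senescent mean of 6.17. Closest to Ccl7 were Igfbp6, Tppp3 and Fcrls, closest to Cxcl2 were Sbno2, Plekho2 and Neurl3, and closest to Ccl3 were Ifi207, Sh3bgrl and Apbb1ip. Ccl5 in T had no close neighbour by this measure, with the nearest, Tmsb10, at a distance of 0.94 log2 units. Ifi207 and Ccl3 in Marco, at lower levels, were 0.0069 apart. The measure depends on level, so these distances do not compare how unusual the differences between libraries were.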

How the data were processed

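Reads were processed with Cell Ranger 2.1.1 on the mm10 build, per the submitters' processing notes. Tissue was digested enzymatically and live cells were counted by trypan blue, per the labels' protocols. Cell filters, doublets, free RNA, clustering and the test are not stated in the sources used here. The deposited means are a signal that the authors averaged per cluster on a scale that is not stated, so depth is unknown and no interval was computed. Columns were matched to libraries through the labels' descriptions, and the direction of every difference rests on them, because the contrast name inside the deposited file says neither young nor senescent. The deposited log2 fold changes compare the senescent with the young mean, so those of genes listed at 0 depend on the authors' added constant and were not printed. The deposited p-values are the authors' own over cells, and their adjusted values are 32432 to 32656 times the raw p-values of the called chemokine entries.

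Computed here were folds, log2 ratios after adding a pseudocount of 1, counts, medians and ranks, with Python 3.11.15, numpy 2.4.6 and pandas 2.3.3. The code was tested on simulated data. With 1 library per group, no test was made. The members and lists were chosen with earlier results of these data known. Named genes were all members, receptors of their proteins (1 item is not reported here), and from each further list up to 4 genes per cluster with the largest log2 ratio that passed the adjusted p of 0.05 and reached a mean of 0.1 in either library. Marker genes named are examples. All 10 symbols matched RefSeq on GRCm38.p6. Alternatives tried were other thresholds, pseudocounts of 0.1 and 10, a minimum mean of 0.1 and centring on all listed genes or on markers.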

Additional observations from a re-analysis of the deposited data

Results flagged for a closer look

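Ackr3, Cxcl12 and Cxcl16 had senescent means that were higher in some clusters and lower in others, and with single libraries these differences were not tested. Ackr3, the scavenging receptor of CXCL12, had means of 0.496 and 0.801 in PT and of 0.213 and 0.0550 in Marco, and both entries passed in the authors' deposited table. Its log2 ratio after adding 1 spanned 1.76 between endo, where it was highest, and Neutro, but neither the endo nor the Neutro entry passed. Cxcl16 had means of 0.514 and 3.85 in Marco and of 0.233 and 0.0365 in B, a span of 1.93, and the entry in B did not pass. Cxcl12 had means of 0.134 and 0.300 in PT and of 0.202 and 0.0338 in T, a span of 0.41, and the entry in T did not pass.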

How the results depend on the processing

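The count of 9 chemokine entries called higher stayed within 9 to 11 under the other thresholds tried, and the count called lower stayed at 0. No paired analysis was possible because each group had 1 library. The median log2 ratio of the 7 chemokine genes in Marco was 3.92 with a pseudocount of 0.1 and 0.30 with one of 10, since most of them were low or at 0 in the young library. Relative to the median of the macrophage or monocyte markers it was -0.18. Relative to their own cluster's markers, 6 entries fell below 0 (Cxcl2 -0.91, Ccl2 -0.032, Ccl3 -0.80, Ccl7 -0.51 and Ccl8 -0.18 in Marco and Ccl4 -0.074 in T). Above 0 were Ccl5 in T (1.34), Cxcl13 (1.13) and Ccl4 (0.27) in Marco, and Cxcl1 in PT (1.07). With a pseudocount of 0.1 as well, a setting chosen after seeing the data, only Ccl3 (-0.68) and Ccl4 (-0.0043) in Marco were below 0 among the 10 entries with such a value. No endothelial marker was listed, so Cxcl1 in endo has none. Without a threshold on the adjusted p, entries of the other chemokines that were lower went from 0 to 7, receptor entries from 7 to 13 higher and from 1 to 4 lower, cytokine entries from 3 to 5 higher, and NF-kB regulator entries from 21 to 43 higher and from 0 to 1 lower. The sign relative to the markers thus depended on the pseudocount for Cxcl2, Ccl2, Ccl4, Ccl7 and Ccl8 in Marco and for Ccl4 in T. Without a pseudocount, the folds in Marco were 28.1 for Ccl2, 6.95 for Ccl4 and 4.87 for Ccl3. The median fold of the macrophage or monocyte markers was 6.70. Causes beyond the pseudocount were not tested.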

Other observations

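The deposited table carries pathway annotations, and these were used to describe genes other than the 10 chemokines in Marco, a choice made after the values were seen. Of 40 other listed genes annotated to TNF signalling, 39 had the higher mean in the senescent library and 1 the lower, and 22 of the higher and 1 of the lower genes passed in the authors' deposited table. Of 25 other genes annotated to IL-17 signalling, 22 were higher and 3 lower, of which 15 and 2 passed in the authors' deposited table. Of 37 annotated to Toll-like receptor signalling, 36 were higher and 1 lower, of which 23 and 1 passed there. Among all genes listed in Marco, 58.3% had the higher mean in the senescent library. Of them, 24.6% were higher and passed, and 24.8% were lower and passed. Macrophage or monocyte markers were higher and passed there in 13 of 13, and proximal tubule markers were lower in 10 of 10. What the cell-type transcripts of the cluster contribute to these pathway counts was not tested. The annotations overlap, so a gene can be counted under several of them. Of the 9 listed chemokine genes, Ccl2, Ccl5, Cxcl1 and Cxcl2 carry the TNF annotation, and Ccl2, Ccl7, Cxcl1 and Cxcl2 the IL-17 annotation.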
